A study of Oreochromis niloticus and Pundamilia nyererei with 6 samples.

Results

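Short spliced transcripts were examined in the liver of the cichlids Pundamilia nyererei (PN) and Oreochromis niloticus (ON, the Nile tilapia). A transcript was counted as short and spliced where its row carries a strand, it has 2 or 3 exons and it is under 1000 bases long. This rule uses no abundance value. It found 1755 transcripts among the 45966 listed for PN and 2423 among the 41456 listed for ON, 4178 of 87422 in all. They were 6.83% of the 25677 stranded transcripts with several exons in PN and 7.84% of the 30925 in ON. All remaining stranded transcripts with 2 or more exons are called other spliced transcripts here, 23922 in PN and 28502 in ON.

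The libraries came from 3 PN and 3 ON males, one library per fish, and all fish were reared in tanks. The PN fish were of generation 1 from Lake Victoria and the ON fish of generation ~93 from Manzala in Egypt, and no age is stated for either. Pieces of 5 to 10 mg of liver gave total RNA, from which ribosomal RNA was removed before stranded libraries were made and read as pairs of 75 bp. Between 11.3 and 13.3 Mio read pairs stood behind the values of a library, computed from its aligned bases. For most libraries this is above the average number of read pairs that the labels state, and whether reads with several alignments were counted more than once is not known. The rows carry serial names and no gene symbols, so the liver label could not be checked against marker genes and no transcript is tied to a gene. The serial names are separate in each species, and no single transcript was compared between PN and ON.

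In fish as in other vertebrates, short genes with few exons include those of some small secreted proteins and of some noncoding RNAs. The liver makes and exports a large part of the proteins of the blood, and several of its secreted products are small, among them apolipoproteins and antimicrobial peptides. A short spliced model can also be a piece of a longer gene that the assembly did not join. The tables do not show which of these a given transcript is.

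Most short spliced transcripts were compact. The median length was 554 bases in PN and 531 bases in ON, against 2532 and 2694 bases for the other spliced transcripts. Under 200 bases there were 44 PN and 95 ON transcripts. Both exon numbers were common, with 973 transcripts of 2 exons and 782 of 3 exons in PN and 1225 and 1198 in ON. The median span on the genome, introns included, was 1326 bases in PN and 1803 bases in ON, against 9669.5 and 9454 bases for the other spliced transcripts. Long introns were found in a minority. Spans over 10000 bases were taken by 118 PN transcripts (6.72%) and 312 ON transcripts (12.9%). The longest was mRNA38048 of PN, which spanned 393046 bases on NW_005187759.1 with 322 bases of exon and had 3.49, 2.98 and 3.93 FPKM. In ON it was mRNA9209 on NC_031969.1, with a span of 776888 bases and an FPKM of 0.31, 0.19 and 0.10. The PN transcript was thus found at a low and even level in every fish, while the ON one was under 0.4 FPKM throughout. For this ON transcript 3 reads correspond to an FPKM of 0.16, so its values rest on few reads. FPKM counts the fragments of a transcript per kilobase of its length and per Mio fragments mapped, so it is a level per length.

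A larger share of short spliced than of other spliced transcripts stood alone. A locus was taken as a set of transcripts of one strand whose spans overlap. In PN, 1190 short spliced transcripts (67.8%) were alone in their locus, against 48.1% of the other spliced transcripts. In ON, 1520 (62.7%) were alone, against 46.4%. A shorter span has less room to overlap another, and these shares were not adjusted for span. With overlap counted on either strand, 1046 PN and 1210 ON short spliced transcripts were alone. On one strand, a further 206 PN and 393 ON transcripts shared a locus with short spliced transcripts only. The remaining 359 in PN and 510 in ON overlapped other stranded transcripts. A spliced span on the opposite strand overlapped 12.1% of short against 6.43% of other spliced transcripts in PN, and 21.5% against 13.1% in ON. These counts describe 1 merged transcript set per species and have no replicate error.

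Short spliced transcripts took a smaller part of the sequenced RNA in PN liver than in ON liver. Their share of aligned bases, computed as coverage times length, was 2.88%, 3.33% and 2.34% in the 3 PN fish, against 9.60%, 6.05% and 6.83% in the 3 ON fish. The means were 2.85% ± 0.50 in PN and 7.49% ± 1.86 in ON (SD, n = 3 each), a difference of -4.64 percentage points. All 3 PN fish lay below all 3 ON fish, and p was 0.10 in a two-sided exact permutation test, the smallest that 3 fish against 3 can give. The transcript set, genome and annotation also differ between PN and ON, so their part and that of the fish cannot be told apart. In bulk liver, fewer cells of a type and less RNA per cell cannot be told apart either.

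**Figure D1:**
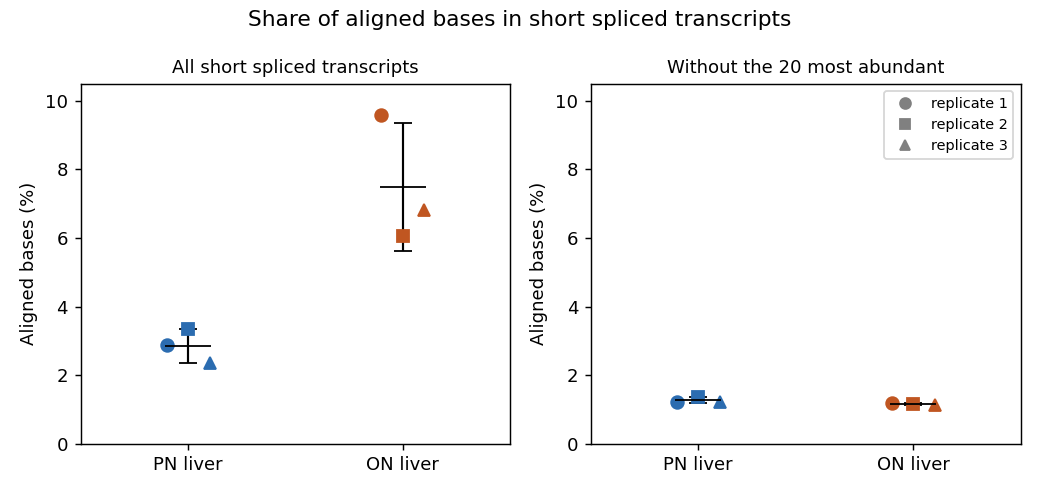
Share of aligned bases (%) in short spliced transcripts for each library of PN and ON liver, with all of them (left) and without the 20 most abundant of each species (right). Points are fish, and bars give the mean and the SD over 3 fish. The PN fish lie between 2.34% and 3.33% and the ON fish between 6.05% and 9.60% on the left, while all 6 lie between 1.14% and 1.37% on the right.

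The difference was carried by the most abundant transcripts. Without the single most abundant one of each species the shares were 2.75%, 3.13% and 2.19% in PN and 6.48%, 5.05% and 4.99% in ON. Without the 20 most abundant they were 1.23%, 1.37% and 1.22% in PN, against 1.18%, 1.16% and 1.14% in ON. The order of the species was then turned round, with a difference of 0.11 percentage points (two-sided exact permutation test, p = 0.10, n = 3 each). Among transcripts alone in their locus the shares averaged 1.92% ± 0.45 in PN and 2.05% ± 0.26 in ON (SD, n = 3 each; p = 0.70, two-sided exact permutation test).

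Counted as a share of the summed FPKM, which gives short transcripts more weight, the short spliced transcripts held 8.19%, 10.3% and 7.13% in PN and 30.8%, 20.4% and 23.8% in ON. The difference was -16.5 percentage points (two-sided exact permutation test, p = 0.10, n = 3 each). Without the 20 most abundant it was -0.054 percentage points (p = 0.80, two-sided exact permutation test). Within the transcripts alone in their locus it was 1.26 percentage points, with the higher mean in PN (p = 0.30, two-sided exact permutation test). The 10 most abundant of a library held 50.3%, 58.7% and 44.8% of the short spliced FPKM in PN, against 84.5%, 76.3% and 80.8% in ON. This concentration was lower in each PN fish than in each ON fish (difference -29.3 percentage points, p = 0.10, two-sided exact permutation test, n = 3 each).

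Detection followed another order. In PN 83.0%, 86.8% and 81.8% of the short spliced transcripts had an FPKM above 0, against 72.8%, 69.4% and 72.1% in ON (difference 12.5 percentage points, p = 0.10, two-sided exact permutation test, n = 3 each). The other spliced transcripts were above 0 for 87.1% to 88.4% in PN and 82.3% to 83.3% in ON, above the short ones in each library. At least 1 FPKM was reached by 59.1%, 65.5% and 59.7% of the short spliced transcripts in PN and by 34.5%, 32.9% and 33.5% in ON. At that level the other spliced transcripts were below the short ones in each PN library, at 53.8%, 56.4% and 54.3%, and above them in each ON library, at 41.4%, 41.8% and 42.1%. In all 3 fish of the species, 1177 PN transcripts (67.1%) and 1138 ON transcripts (47.0%) were above 0, against 75.6% of the other spliced transcripts in PN and 67.2% in ON. In only 1 fish, 268 PN and 721 ON transcripts were, and 1 PN and 35 ON transcripts were listed at 0 in every fish.

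The depth behind a typical short spliced transcript was low. Among those above 0, the median FPKM was 2.20, 2.64 and 2.48 in PN and 0.85, 0.84 and 0.83 in ON. The corresponding median depth was 28.2, 31.1 and 34.2 reads in PN, against 11.6, 11.8 and 10.9 reads in ON. Fewer than 3 reads stood behind 105 to 130 of the PN transcripts above 0 and 381 to 435 of the ON transcripts. A value of 0 in one fish does not show absence at this depth.

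Against the other spliced transcripts of the same library, the typical short spliced transcript was higher in PN and lower in ON. The median log2 FPKM of short minus that of other spliced transcripts, over transcripts above 0, was 0.38, 0.41 and 0.39 in the PN fish and -0.21, -0.31 and -0.35 in the ON fish. Within each species all 3 fish had one direction (exact sign-flip test, p = 0.25, the smallest that 3 fish allow). The species differed by 0.68 (two-sided exact permutation test, p = 0.10, n = 3 each). Where every fish had to reach 1 FPKM, the difference was 0.25 in PN and 0.31 in ON, so that both were positive and the order of the species was turned round (p = 0.40, two-sided exact permutation test). At that minimum 783 PN and 564 ON short spliced transcripts remained. The ON direction also depended on the length limit. With a limit of 500 bases the mean was 0.37 in PN and -0.03 in ON, where the fish ranged from -0.13 to 0.07. With a limit of 1500 bases the ON fish ranged from -0.51 to -0.45.

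**Figure D2:**
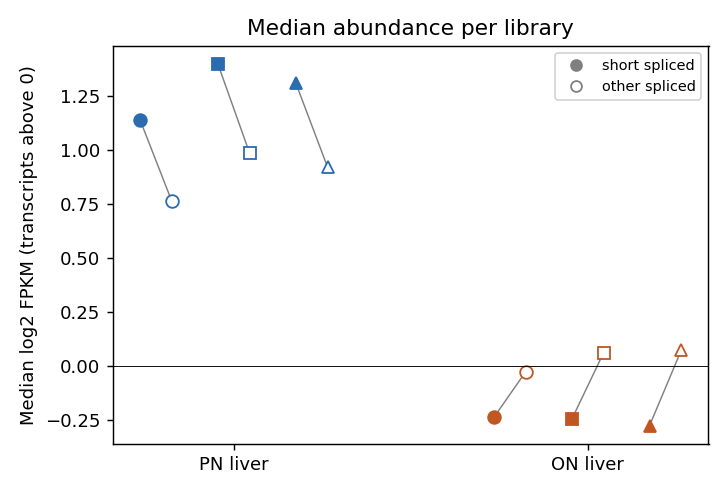
Median log2 FPKM per library of short spliced (filled) and other spliced (open) transcripts above 0, in PN and ON liver, each line joining the values of 1 fish. The short spliced transcripts lie above the others by 0.38 to 0.41 in PN and below them by 0.21 to 0.35 in ON.

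Just inside and just outside the length limit, levels were as follows. The 103 PN transcripts of 950 to 999 bases had a median mean FPKM of 1.64 and the 90 of 1000 to 1049 bases with 2 or 3 exons 1.63. In ON the values were 0.22 for 111 and 0.31 for 118 transcripts. Across the lengths below the limit, the summed FPKM in ON lay mostly in shorter classes, through a few very abundant transcripts. ON transcripts of 300 to 399 bases held 51.2%, 38.1% and 40.2% of the short spliced FPKM, and those of 200 to 299 bases held 33.9%, 37.8% and 42.1%. In replicate 1, mRNA23082 alone had 80043 of the 124726 FPKM of the first class. There mRNA2123 had 47736 of the 82504 of the second. The typical level did not follow the share in the class of 300 to 399 bases. The ON median mean FPKM was highest at 200 to 299 bases, at 1.26. It was 0.19 under 200 bases, 0.31 at 300 to 399 and 0.31 at 900 to 999. In PN the 200 to 299 base class held 24.1%, 23.1% and 31.1%.

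Exon number separated the levels in ON. The median log2 FPKM of 3-exon minus 2-exon transcripts was 0.15, -0.06 and 0.11 in PN and -0.80, -1.26 and -0.80 in ON (difference 1.02, p = 0.10, two-sided exact permutation test, n = 3 each). In ON the 3-exon transcripts were thus the lower ones in every fish, while the PN fish did not share one direction. With transcripts at 0 included, on the log2(FPKM + 0.1) scale, the 3-exon transcripts were lower in all fish of both species, by means of -0.26 in PN and -0.74 in ON. Where every fish had to reach 1 FPKM, the 3-exon transcripts had the higher median in both, by 0.63 in PN and 0.41 in ON. On the log2(FPKM + 1) scale the means were -0.17 in PN and -0.24 in ON, and the species differed by 0.067 (p = 0.20, two-sided exact permutation test).

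In a 2-exon transcript the single intron is the span less the length. Its median was 414 bases in PN and 703 bases in ON. In ON the level differed with intron length, in medians that include transcripts at 0. The 445 ON transcripts with an intron over 100 and up to 1000 bases had a median FPKM of 0.19, 0.17 and 0.17, against 2.26, 2.83 and 2.44 for the 153 with an intron over 10000 bases. Of the 445, 69.4%, 63.4% and 70.6% were above 0, against 85.6%, 86.9% and 83.0% of the 153. In PN the 466 transcripts of the same shorter class had 1.79, 2.28 and 1.97, and the 61 with an intron over 10000 bases had 1.97, 2.92 and 2.08. These classes were thus close to each other within a PN fish and far apart in every ON fish. The lowest PN class in replicates 1 and 3 was that of introns over 50 and up to 100 bases, at 0.83 and 1.02, against 2.05 and 2.12 for introns over 1000 and up to 10000 bases. The classes were set after the values had been seen and no test was made. Introns of up to 50 bases, found in 32 PN and 18 ON transcripts, are short for a vertebrate intron.

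**Figure D3:**
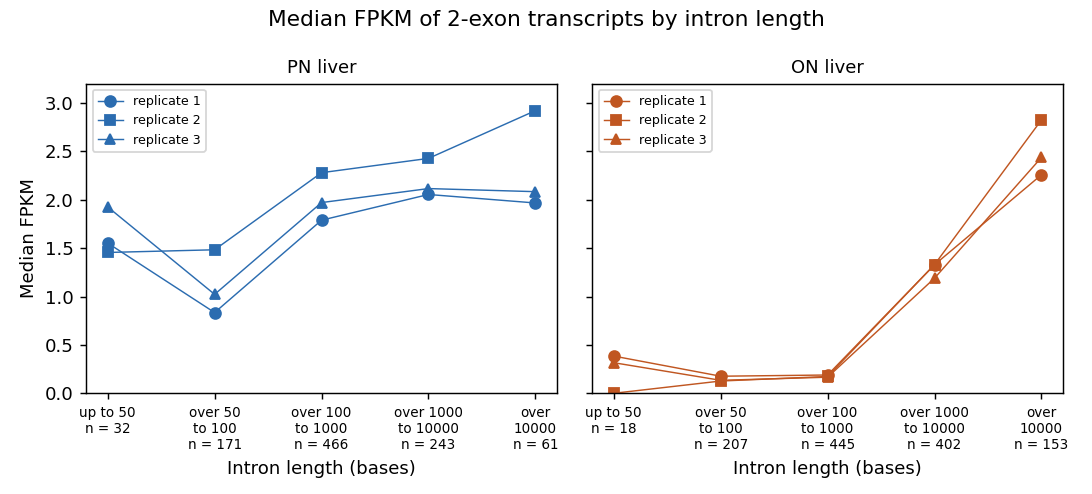
Median FPKM of 2-exon short spliced transcripts (vertical axis) by the length of their intron in bases (horizontal axis), in PN and ON liver, with a line for each fish and the number of transcripts under each class. Transcripts at 0 are included. In ON the medians are under 0.4 up to an intron of 1000 bases and reach 2.26 to 2.83 over 10000 bases, while all PN medians lie between 0.83 and 2.92.

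The most abundant short spliced transcripts were of different make in the species. The 20 with the highest mean FPKM had means of 612 to 6287 in PN and 938 to 50993 in ON. Of the 20 in PN, 8 had 2 exons, 16 were alone in their locus and 18 spanned at most 1500 bases. Of the 20 in ON, 14 had 2 exons, 8 were alone and 4 spanned at most 1500 bases, while 7 spanned over 10000 bases. Several of the ON 20 are overlapping models of a shared locus. Among the 100 most abundant transcripts of any kind, 10 in PN and 19 in ON were short and spliced. Of all listed transcripts, 3.82% in PN and 5.84% in ON were. Stranded transcripts with several exons made up 85 of these 100 in PN and 88 in ON.

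In PN the highest mean belonged to mRNA2233, a 2-exon transcript of 255 bases on the minus strand of NW_005187535.1, from 1493993 to 1496588 of PunNye1.0. Its FPKM was 5245, 7773 and 5844, and it shares its locus with 4 other stranded transcripts. The summed FPKM of that locus was 21637, 30594 and 24506. The transcript and its locus were thus at a like level in the 3 fish.

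The next PN transcripts differed strongly between fish. The 3-exon transcript mRNA7012 of 689 bases, on the minus strand of NW_005187412.1 from 5309450 to 5310421, was at 8642, 7477 and 503 FPKM. The 3-exon transcript mRNA8370 of 327 bases, on the plus strand of NW_005187417.1 from 2799461 to 2800043, had 1416, 10882 and 4.37. Both were alone in their locus, and replicate 3 was the lowest fish in each.

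A pair of PN transcripts of equal ends and equal length, mRNA45898 and mRNA45897, lay on the short sequence NW_005194320.1 from 108 to 1067 on the plus strand, with 3 exons and 431 bases each. Their FPKM was 3198, 5019 and 3835 for mRNA45898 and 3848, 3461 and 2877 for mRNA45897. The sum of the pair was 7047, 8479 and 6711, and how reads were divided between them is part of the authors' quantification. The 2-exon mRNA45896 of 250 bases ran on the minus strand of the same sequence from 108 to 747 with 1856, 2996 and 2480. These 3 are all the stranded transcripts of that sequence, and each was high in every fish.

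Sequences with at most 5 stranded transcripts held 12 of the 20 most abundant PN transcripts, and 516 of all 1755 short spliced PN transcripts. In ON they held 6 of the 20 and 300 of all 2423. Examples that lie, like mRNA45898, near a sequence start are mRNA45803, which ran from 5 to 839 of NW_005193964.1 and had 782, 658 and 771, and mRNA45616, which ran from 1 to 1306 of NW_005193131.1 and had 1108, 640 and 454. A start within 150 bases of the sequence start was found for 110 PN short spliced transcripts (6.27%), against 0.865% of the other spliced transcripts, and for 7 of the 20 most abundant. In ON 3 transcripts (0.12%) began so near to a sequence start, against 0.0035% of the other spliced transcripts. All 1755 PN short spliced transcripts lay on NW sequences, while 1778 of the 2423 in ON lay on NC sequences. Whether such PN transcripts run on beyond the sequence was not tested.

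In ON one stretch of NC_031978.1 held most of the short spliced abundance. Between 17359775 and 18001683 of ASM185804v2 lay 6 short spliced transcripts in 3 loci, which took 72.4%, 53.6% and 70.4% of all short spliced FPKM and 6.08%, 2.55% and 4.08% of the aligned bases. The stretch was picked after its values had been seen. The 2-exon transcript mRNA23082 of 389 bases, on the minus strand from 17359775 to 17387401, had an FPKM of 80043, 25699 and 47236, the highest mean of all ON transcripts. Its intron of 27238 bases is far longer than the transcript itself.

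The neighbour mRNA23083, of 328 bases and with a start at 17359820, had 28866 in replicate 1 and was listed at 0 in replicates 2 and 3. It forms 1 locus with mRNA23082. On the plus strand the 2-exon mRNA2123 of 299 bases, from 17998628 to 18001683, had 47736, 40618 and 50801 and so was even between fish. Just before it and overlapping it in span, mRNA2124 and mRNA2122 ran from 17991050 to 17998924 with 3 exons each. They had 14654, 2973 and 11744 for mRNA2124 and 5097, 7856 and 11838 for mRNA2122. How reads were divided between such overlapping models is part of the authors' quantification.

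A transcript outside this stretch, mRNA36988, was the third in ON. It has 3 exons and 740 bases, runs from 1327 to 26597 on the minus strand of NW_017613966.1 and is the one stranded transcript listed there. Its FPKM was 12177, 12425 and 6852, high in every fish. A group on NC_031979.1 was even as well. There mRNA23761 had 2185, 3101 and 2638, mRNA23762 had 2065, 2929 and 2476, mRNA23763 had 1243, 1785 and 1543 and mRNA23771, at 4668053 to 4669782, had 1882, 2646 and 2350. In each of these 4 the order of the fish was equal, with replicate 2 highest and replicate 1 lowest, and the first 3 of them share a locus.

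**Figure D4:**
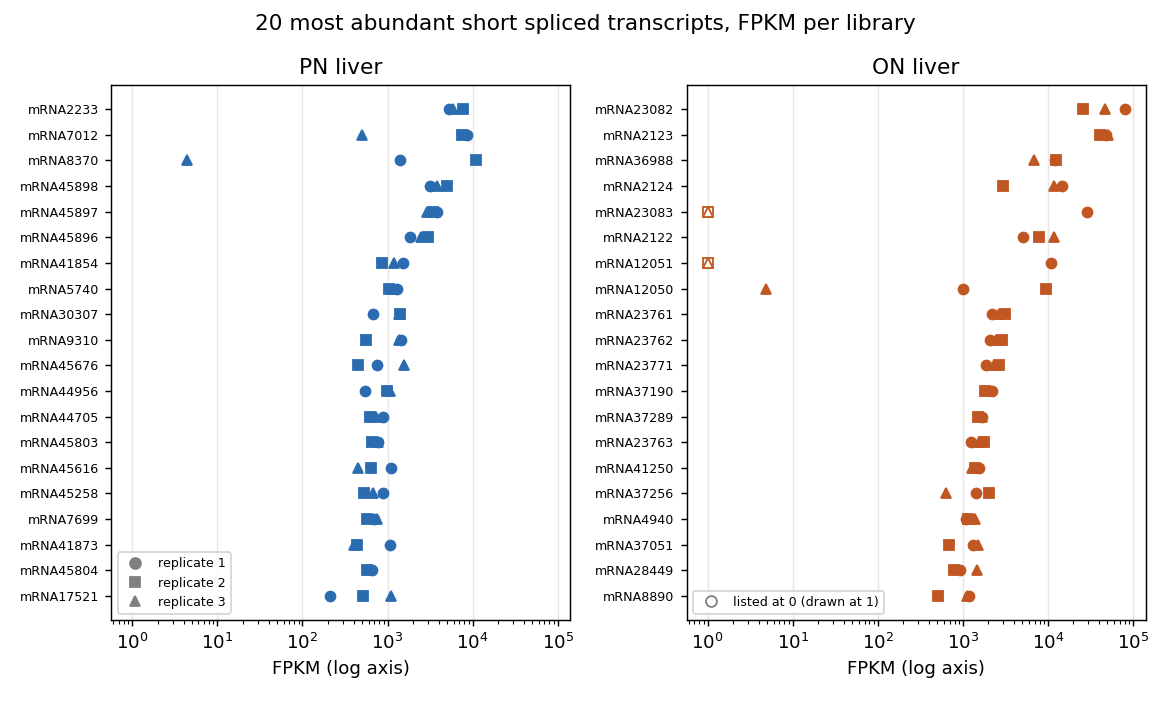
FPKM (log axis) of the 20 short spliced transcripts with the highest mean in PN and in ON liver, a symbol for each fish, with values listed at 0 drawn open at 1. The highest fish was under 2 times the lowest for 12 of the 20 in PN and 11 of the 20 in ON. Values are farthest apart for mRNA7012 and mRNA8370 in PN and for mRNA23083, mRNA12051 and mRNA12050 in ON.

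A set of ON transcripts with nearly equal spans lay on unplaced sequences. There were 22 with 2 exons and spans of 12916 to 13172 bases on 14 sequences, and 10 of them, on 6 sequences, had a mean FPKM of at least 100. The most abundant was mRNA37190 of NW_017614206.1 with 2190, 1846 and 2062, followed by mRNA37289 of NW_017614354.1 with 1664, 1523 and 1696. The set was picked after the values had been seen. Whether its members are copies of one gene was not tested, and near-identical copies would make the division of reads among them uncertain.

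Short spliced transcripts varied more between fish than other spliced transcripts of like abundance. The median SD over 3 fish of log2(FPKM + 1) was 0.46 against 0.29 in PN and 0.50 against 0.29 in ON at a mean FPKM of 1 to 10. At 10 to 100 it was 0.35 against 0.28 in PN and 0.47 against 0.31 in ON. At 100 to 1000 it was 0.39 against 0.32 in PN and 0.50 against 0.25 in ON. At 1000 and more, with only 10 PN and 19 ON short transcripts, it was 0.38 against 0.23 in PN and 0.48 against 0.21 in ON. The short transcripts had the larger value in each of the 8 classes. Among transcripts alone in their locus this held in 7 classes, and in the 7 ON transcripts at 1000 and more the value was 0.18 against 0.19. Transcripts are not replicates, so no test was made, and at equal FPKM a shorter transcript rests on fewer reads.

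**Figure D5:**
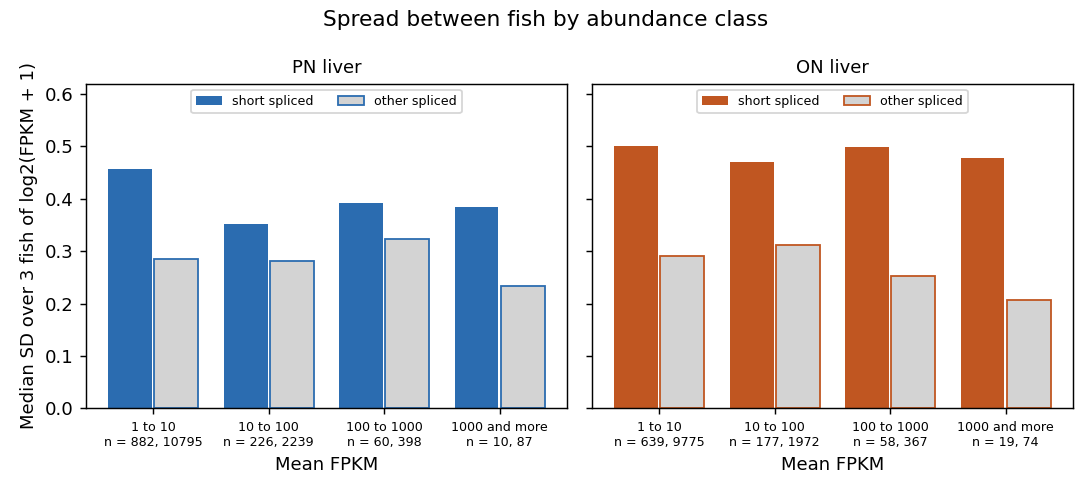
Median SD over 3 fish of log2(FPKM + 1) for short spliced and other spliced transcripts of PN and ON liver, in classes of mean FPKM, with the numbers of short and of other transcripts under each class. The bars of short spliced transcripts are higher in all 8 classes, at 0.35 to 0.50 against 0.21 to 0.32.

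Strong differences between fish reached the abundant ones. At a mean FPKM of at least 100, 10 of 70 PN short spliced transcripts (14.3%) differed over 10-fold between fish or were listed at 0 in a fish, against 21 of 485 other spliced transcripts (4.33%). In ON it was 13 of 77 (16.9%), against 17 of 441 (3.85%). At a mean of at least 10 it was 40 of 296 short spliced against 108 of 2724 other spliced transcripts (3.96%) in PN, and 40 of 254 against 131 of 2413 (5.43%) in ON.

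The most variable PN transcripts after mRNA8370 were mostly seen in one fish. The 2-exon mRNA24583 of 174 bases on NW_005187510.1 had an FPKM of 8.94, 1612 and 0.36, the last of these resting on fewer than 3 reads. On NW_005194562.1, mRNA45950 had 40.7, 652 and 0 and mRNA45949, which overlaps it on the opposite strand, had 0, 415 and 0. All 3 were highest in replicate 2. In contrast mRNA33660, with a span of 66784 bases on NW_005187638.1, was listed at 0 in replicates 1 and 2 and had 369 in replicate 3.

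In ON the variable transcripts were of more than one kind. The 2-exon mRNA12051, at 13550386 to 13551415 of NC_031971.1, had 10906, 0 and 0, and mRNA12050, with a start at 13550321 in the same locus, had 1008, 9476 and 4.87. Their locus sum was 11913, 9476 and 4.87, so the locus itself was far lower in replicate 3 than in the other fish. For mRNA23082 and mRNA23083 the locus sum was 108909, 25699 and 47236, so there the locus was high in every fish and the values at 0 concern one model of it. The same was so of mRNA37052, which had 440, 0 and 0 in a locus with a sum of 1749, 695 and 1510. At NC_031982.1 mRNA29070, from 29553499 to 29568286, had 0.35, 1246 and 512, the first of these resting on fewer than 3 reads. Its locus sum was 0.35, 1547 and 540, so there the locus itself was far lower in replicate 1 than in the other fish.

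Levels of single short spliced transcripts were less alike between fish over their whole range too. Spearman's rho between fish of one species was 0.66 to 0.76 in PN, against 0.84 to 0.86 for other spliced transcripts, and 0.58 to 0.67 in ON, against 0.80 to 0.82. These are correlations across 1754 PN and 2388 ON short spliced transcripts above 0 in at least 1 fish, which are not independent replicates.

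Some short spliced transcripts lay in runs, in which loci that hold them followed each other on one strand at most 20000 bases apart. In PN 88 runs held 218 transcripts (12.4%) and in ON 153 runs held 440 (18.2%). At a gap of at most 5000 bases the shares were 7.07% and 7.51%. Runs of other spliced transcripts were not counted. These shares therefore do not show whether short spliced transcripts lie closer together than others. The run with the most was of 7 transcripts in PN, from 154450 to 176858 on the minus strand of NW_005187722.1, and of 8 in ON, from 12498252 to 12523870 on the plus strand of NC_031983.1. All of these had 2 exons and none reached a mean FPKM of 1. On the sequence of the PN run, picked after its values had been seen, 28 of its 30 stranded spliced transcripts were short and all 28 were on the minus strand, with a median mean FPKM of 0.15 against 1.94 for short spliced transcripts elsewhere in PN.

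The locus with the most short spliced transcripts was another one in both species. In PN it lay from 1811309 to 1922355 on the plus strand of NW_005187410.1, with 5 short ones among 12 transcripts and a summed FPKM of the 5 of 0.65, 21.4 and 10.9. In ON it lay from 43030448 to 43674404 on the plus strand of NC_031968.1, with 12 among 18 transcripts and a sum of the 12 of 436, 646 and 481. The highest of the 12 was mRNA7910, with a mean FPKM of 142. The short transcripts of the ON locus were thus at a like summed level in the 3 fish, and those of the PN locus were lowest in replicate 1. The other transcripts of these loci are not in the sums.

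The shortest transcripts with a mean FPKM of at least 1 were mRNA22495 of PN, with 74 bases and values of 0, 3.55 and 2.01, and mRNA39415 of ON, with 92 bases and values of 0, 30.5 and 0. The intron of mRNA22495 is only 21 bases long, and whether it is a true intron was not tested. Since 3 reads correspond to an FPKM of 1.80 for the first and 1.24 for the second, the PN values above 0 rest on few reads, while the ON value of replicate 2 lies well above its floor. Both transcripts are about as long as one read of 75 bases.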

How the data were processed

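Liver RNA of 3 PN and 3 ON males was measured, one library per fish, and groups were taken from the sample labels. The authors aligned the reads of each species to its own genome (PN PunNye1.0, ON ASM185804v2) with HISAT2 2.1.0. They assembled transcripts with StringTie and the reference annotation and merged the fish of a species. The paper describes removal of unexpressed and duplicated transcripts, and similar transcripts of a locus were clustered and fused by uniting their exons. Exon number, length and span of a listed transcript can thus be those of a fused model. The authors deposited, for each library and transcript, an FPKM and a per-base coverage, neither of which is a read count, so no count model was used. How often a read with several alignments enters the values is not given in the sources used.

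Coverage divided by FPKM was 1 constant per library (relative deviation at most 1.06e-07 above an FPKM of 50), which gave 1691745086 to 1997213175 aligned bases. Reads behind a transcript were computed as coverage times length over 75 bases, and 3 reads were taken as the floor. Floors cover counting error only.

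For each measure the 3 PN values were set against the 3 ON values (exact permutation test, two-sided), and p-values measure the spread between these fish only. The members, lists and tests were chosen with earlier results of these data known. The text names per species the 20 transcripts with the highest mean FPKM, the 5 with the largest range of log2(FPKM + 1) among those with a mean of at least 10, the longest span, the shortest at a mean of at least 1, and the largest locus and run. Transcripts named outside these lists were chosen after their values were seen. No sequences and no gene names were used, as no annotation of these builds was at hand. Computations used scipy 1.17.1, pandas 2.3.3 and numpy 2.4.6 under Python 3.11.15, and plots used matplotlib 3.10.9. The building of loci was checked against a direct comparison of overlaps on 600 simulated transcripts, with 0 differing in locus size. Alternatives covered length limits, FPKM minimums, pseudocounts, denominators, transcripts alone in their locus, leaving out the most abundant or single fish and, added after seeing the data, sequences with at least 10 stranded transcripts.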

Additional observations from a re-analysis of the deposited data

Results flagged for a closer look

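The median log2 FPKM of short spliced minus other spliced transcripts differed between the species by 0.68, PN minus ON. It drew attention because it was above 0 in each of the 3 PN fish and below 0 in each of the 3 ON fish (two-sided exact permutation test, p = 0.10, n = 3 each, the smallest p possible). Where every fish had to reach 1 FPKM, both species were above 0. With a length limit of 500 bases the ON fish lay on both sides of 0, from -0.13 to 0.07. Groups of 3 fish are too small to look for single outlying fish.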

How the results depend on the processing

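Of 84 values of the 6 comparisons between species under the alternatives, 81 kept their direction and 3 did not. The 81 include the 6 block values given below, which could not change, and all values with 1 fish left out. Only direction was counted, so they also include differences that nearly vanished. Without the 20 most abundant transcripts that in the share of FPKM was -0.054 percentage points (two-sided exact permutation test, p = 0.80). Among transcripts alone in their locus that in aligned bases was -0.13 percentage points (two-sided exact permutation test, p = 0.70). The 3 values that changed direction were as follows. Without the 20 most abundant transcripts the difference in the share of aligned bases was 0.11 percentage points. Among transcripts alone in their locus the difference in the share of FPKM was 1.26 percentage points. Where every fish had to reach 1 FPKM, the difference in median log2 FPKM was -0.063, and that minimum gives no value for the percent above 0. For exon number the difference kept its direction at that minimum, but the ON mean was 0.41, against -0.95 without it. Leaving out 1 fish at a time moved the differences between -5.36 and -3.59 for aligned bases, -18.8 and -13.6 for FPKM, 11.0 and 13.5 for the percent above 0, 0.65 and 0.72 for the median log2 FPKM, -33.0 and -26.0 for the 10 most abundant, and 0.86 and 1.09 for exon number, with an exact permutation p of 0.10 in all. With the replicate number as a block the 6 differences are the same by arithmetic, at -4.64, -16.5, 12.5, 0.68, -29.3 and 1.02. Only the p-value could change, to 0.25 for each (exact sign-flip test), the smallest 3 pairs allow. The numbers mark different fish and nothing pairs them.

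Of 22 descriptive values 5 moved. Among transcripts alone in their locus, the spread of short over other spliced transcripts was 2.64 times in PN at a mean FPKM of 1000 and more, 3.06 times in ON at 100 to 1000 and 0.92 times in ON at 1000 and more. Within 5000 bases, 124 PN and 182 ON transcripts lay in runs. No p below 0.10 can be had from 3 fish against 3, and the low depth of most short spliced transcripts limits what a value of 0 shows. The cause of these changes was not tested.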
